A study of Mus musculus with 2 samples.

Results

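Moderate bins rich in both libraries are autosomal 1 kb stretches of the mouse genome (build mm9) that held many reads of a ChIP library and of a methylated DNA library at once, with the deepest bins of either library left out. They were chosen by their counts: 6 to 25 distinct read positions in the library labelled H2ABbd ChIP-seq and 15 to 25 in the library labelled MeDIP. A distinct position is a chromosome, a 5′ read end and a strand, counted once however many reads share it, and moved 100 bp towards the 3′ end before binning. The rule found 1648 such bins, here called members, among 2164448 autosomal bins with a position in either library (0.0761%). Both libraries came from mouse embryonic stem (ES) cells grown with LIF and without a feeder layer. For the ChIP, chromatin was crosslinked, sonicated and precipitated with a home-made rabbit antibody against mouse H2ABbd. For the MeDIP, sonicated genomic DNA was denatured and precipitated with a mouse monoclonal antibody against 5-methylcytosine (5mC). Each group held 1 library, with no input library used here, so no difference below has a replicate check and none was tested. All intervals are 95% and cover counting error only. They treat positions, reads and bins as independent, though these cluster, so they are likely too narrow.

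H2ABbd is a short variant of histone H2A found in mammals. It lacks part of the C-terminal tail and most of the acidic patch of ordinary H2A, wraps less DNA in the nucleosome and is best known from the male germ line. Methylation of cytosine, mostly at CG dinucleotides, marks much of the mammalian genome outside CpG islands, including transposable elements and satellite repeats. In an affinity library such as ChIP or MeDIP, reads pile up where the target is dense, and also where several genomic copies of a sequence are drawn at 1 place of the reference, so the level of a bin reports both.

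The file of each library carries the antibody of the other in its name, and every direction here rests on the sample labels. The library labelled H2ABbd held 1397289 distinct positions (1346417 on autosomes, a mean of 0.622 per bin), and the library labelled 5mC held 8056333 (7690224 and 3.55). Gene names, exons, CpG islands and repeat classes need an mm9 annotation or sequence and were not analysed here, so members are given by coordinates alone (1-based), and no sequence is shown.

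The counts that chose the members are a description, with no test. Of all bins, 1.21% held 6 to 25 positions of the library labelled H2ABbd (26158 bins) and 0.392% held 15 to 25 of the library labelled 5mC (8479 bins). Members were 6.30% of the first set and 19.4% of the second. Comparison below is with the rest of each: 23850 H2ABbd-rich bins with 0 to 14 positions of 5mC, and 6791 5mC-rich bins with 0 to 5 positions of H2ABbd. The share of bins with 15 to 25 positions of 5mC rose step by step with the H2ABbd count. It was 0.113% of 1461568 bins without an H2ABbd position, 0.925% at 2 positions, 2.68% at 4, 4.73% (4.30 to 5.21) at 6, 7.61% (6.33 to 9.05) at 10 and 9.81% (7.86 to 12.0) at 12. The lower bounds therefore cut through a slope and not at a gap.

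**Figure D1:**
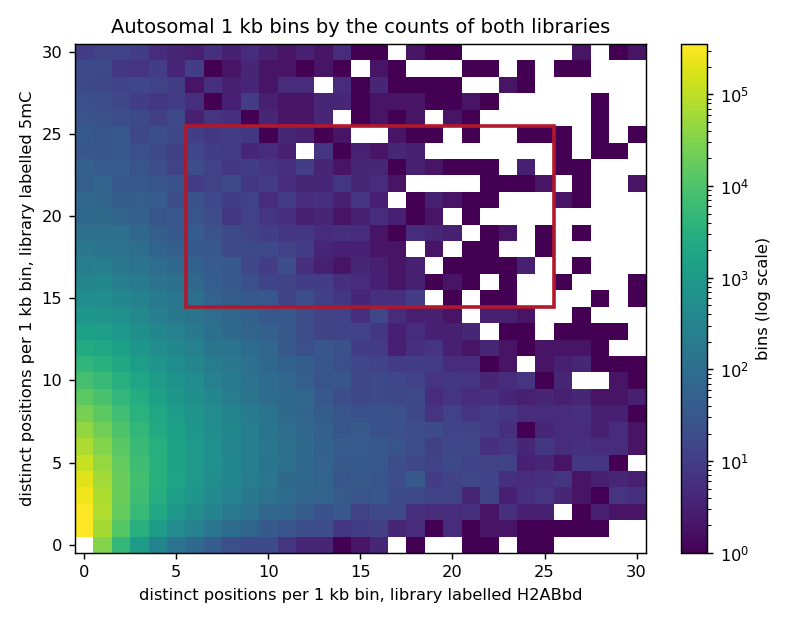
Number of autosomal 1 kb bins (colour, log scale) by distinct positions in the library labelled H2ABbd (horizontal axis) and in the library labelled 5mC (vertical axis), up to 30 each, with white for no bin. The red box holds the 1648 members, and the bins thin out smoothly across its lower and left edges.

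Most members lay near the lower bounds. In the library labelled H2ABbd they held a median of 8 positions (lowest 6, highest 25, with 407 members at 6), and in the library labelled 5mC a median of 18 (15 to 25, with 353 at 15). Just outside the bounds lay 529 bins at 5 positions of H2ABbd and 514 at 14 of 5mC. At the upper bounds 5 members held 25 positions of H2ABbd, beside 6 bins at 26, and 53 held 25 of 5mC, beside 38 at 26. Another 358 bins exceeded 25 in both libraries and are not members. As RPM, positions scaled to the library's total of distinct positions, the median member stood at 5.73 RPM in the library labelled H2ABbd and 2.23 RPM in the library labelled 5mC. The level of H2ABbd was at least 2-fold the level of 5mC in 1386 members, against 17.2% of all bins, a comparison that the bounds themselves set and from which nothing is read. Across the 1648 members the 2 counts were weakly correlated (Pearson r = 0.141, given as a description over a range that the rule cut). Members held 15537 positions of H2ABbd, 1.15% of those on autosomes, and 30253 of 5mC, 0.393%.

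Members were spread over every autosome, unevenly. Per 1000 bins, chromosome 17 held the most (1.28, 1.05 to 1.55; 108 members), and chromosome 3 the fewest (0.377, 0.281 to 0.494; 52 members), with 0.761 over all autosomes. Chromosomes 5 (1.20; 162 members), 19 (1.19; 64) and 8 (1.16; 132) followed chromosome 17, and the intervals of these 4 overlapped. The place of chromosome 8 rested on 1 stretch of 87 kb described below, without which it held 0.829 per 1000, under chromosomes 11 (0.960), 12 and 4 (0.904). Chromosomes 14 (0.432) and 1 (0.485) stood with chromosome 3 at the low end. Read density moved with this order: relative to the autosomal mean, chromosome 17 had 1.18 times the H2ABbd positions per bin and 1.13 times the 5mC positions, and chromosome 3 had 0.766 and 0.863. The match was not complete. Chromosome 9 was the densest in H2ABbd (1.47) but held 0.608 members per 1000 bins (0.472 to 0.771). These densities include bins above 25 positions, which the rule leaves out. Chromosome 9 held 10.1 H2ABbd-rich bins without high 5mC per 1000, inside the range of the autosomes (6.91 to 18.3). Chromosome 12 held the most H2ABbd-rich bins without high 5mC (18.3 per 1000) and 0.924 members per 1000. The part of read density in the order of chromosomes was not tested.

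Members also lay towards the distal ends, taken here as the last position read on each chromosome. Mouse chromosomes carry their centromere at 1 end, where the reference sequence begins, and the distal end is the other one. Within the last 10 Mb lay 20.3% of members (334 bins, 18.4 to 22.3), against 8.17% of all bins. The same window held 15.6% (15.2 to 16.1) of H2ABbd-rich bins and 17.0% (16.1 to 17.9) of 5mC-rich bins, so all 3 sets held more than the share of all bins there, and the interval of members lay above those of the other 2. Within the last 20 Mb the shares were 34.3%, 27.7% and 28.6%, against 16.2% of all bins. No excess was detectable in the last 1 Mb, which held 0.667% of members (11 bins, 0.334 to 1.19) and 0.795% of all bins. In the last 5 Mb the share was 7.22% (6.02 to 8.58), above the 4.06% of all bins and within counting error of the 6.78% and 7.89% of the comparison sets. At the centromere side no such rise was seen: the first 10 Mb of read sequence held 7.83% of members (6.58 to 9.23) and 7.89% of all bins. The first 20 Mb held fewer members (11.8%, 10.3 to 13.5) than the 15.5% of all bins. H2ABbd-rich bins (12.7%) and 5mC-rich bins (12.9%) were also fewer there.

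On 17 of 19 autosomes a larger share of members than of all bins fell in the last 10 Mb, but the excess was uneven. Chromosome 8 had 66 of its 132 members there (50.0%, against 8.62% of its bins), chromosome 11 had 38 of 107 (35.5% against 8.83%) and chromosome 4 had 33 of 124 (26.6% against 7.12%). Chromosome 17, the richest in members, had 6 of 108 there (5.56% against 10.5%), and chromosome 18 had 5 of 48. Without the chromosome 8 stretch described below, 18.4% of members (16.5 to 20.4) lay in the last 10 Mb, which no longer separates them from 5mC-rich bins.

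**Figure D2:**
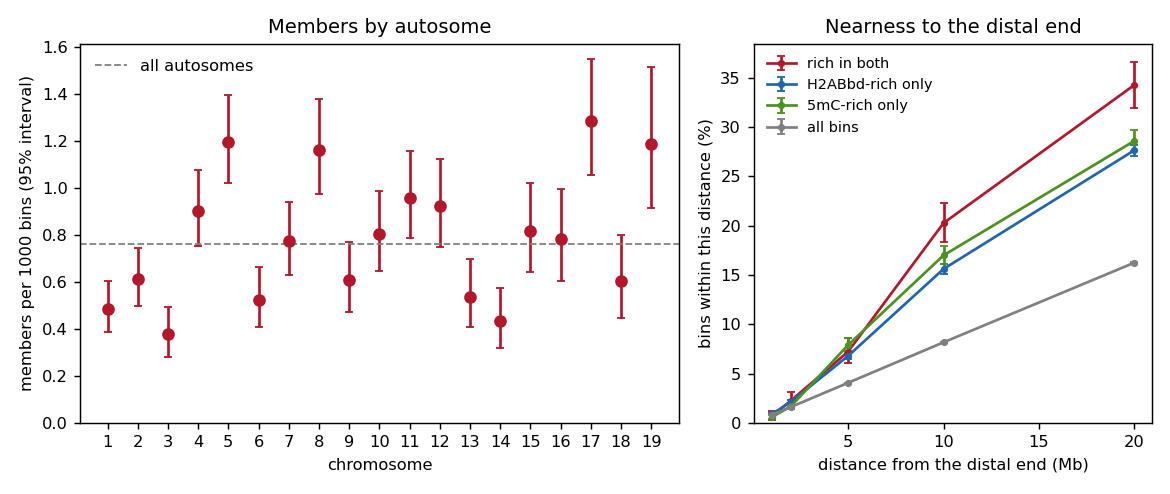
Left, members per 1000 bins on each autosome (points) with exact 95% intervals and the value over all autosomes (dashed, 0.761). Right, percent of members (red), H2ABbd-rich bins (blue), 5mC-rich bins (green) and all bins (grey) within 1, 2, 5, 10 and 20 Mb of the distal end; members reach 34.3% at 20 Mb, against 16.2% of all bins.

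Most members had no adjoining member. They formed 1592 runs of adjoining bins, of which 1544 were a single bin, 41 were 2 bins, 6 were 3 and 1 was 4. Another member adjoined 104 members (6.31%, 5.19 to 7.59), lay within 10 kb of 16.3% and within 100 kb of 38.0%. Members were 0.0761% of all bins, so 6.31% does not mark them as isolated. Such shares for the comparison sets are not given here. Within 1000 kb 82.8% had another member. At 0.761 members per 1000 bins this share is partly set by their number, and nothing is read from it. Of 2420 windows of 1 Mb 848 held a member, 503 of them exactly 1, while 55 windows with 5 or more held 397 members.

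The fullest window was chromosome 8 from 126000001 to 127000000, with 41 members. Chromosome 10 from 79000001 to 80000000 held 19 and the next window on that chromosome 12. Chromosome 12 from 113000001 to 114000000 held 15, and chromosome 11 from 116000001 to 117000000 held 11. In all 5 windows the mean level, members included, was raised in both libraries. Their H2ABbd level was 2.77 to 5.80 times the autosomal mean, and their 5mC level 1.80 to 2.17 times. The chromosome 8 window (3.94 and 2.13 times) includes the stretch of 87 kb described below. The flanks of that stretch at 10 to 100 kb stood at 2.47 and 1.58 times the mean. The chromosome 12 window had the highest H2ABbd level (5.80), and the second chromosome 10 window the highest 5mC level (2.17). The windows of chromosomes 8, 11 and 12 began 5.74, 5.84 and 8.26 Mb from the distal end, and those of chromosome 10 began 50.99 and 49.99 Mb from it.

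In the chromosome 8 window 38 of the 41 members sat in 1 stretch of 87 kb, from 126061001 to 126148000. The stretch was singled out after its values were seen, as the longest group of members no more than 10 kb apart. It was raised along its whole length. No bin of it was empty, 78 of 87 bins held 6 or more H2ABbd positions and 85 held 15 or more 5mC positions, and 39 bins missed the rule only because 5mC exceeded 25. H2ABbd positions ranged from 2 to 23 per bin (median 13) and 5mC positions from 7 to 37 (median 24). In the flanks at 10 to 100 kb the medians were 1 and 5. Over those flanks the stretch stood 8.53 times higher in H2ABbd and 4.36 times higher in 5mC. At its end H2ABbd fell at once, from 14 positions in the last bin to 1 in the next, and 5mC fell over several bins, from 20 to 15, 8 and 5. The bin before its first member held 3 of each.

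The H2ABbd positions of this stretch leaned to 1 strand over its whole length. Of 1142 positions 74.9% were on the plus strand (72.2 to 77.4), and plus outnumbered minus in 75 of 87 bins, with 9 the other way and 3 equal. The 5mC positions did not share the lean: 51.7% of 2125 were on the plus strand, in 43 bins against 37, with 7 equal. Repeated reads were rare in both libraries there (1.89% of 1164 H2ABbd reads and 1.57% of 2159 5mC reads). Copy number of the stretch in these cells was not tested. A second stretch, chromosome 1 from 172995001 to 173014000, held 7 members in 19 kb at 15.0 times (H2ABbd) and 6.86 times (5mC) its flanks, with 61.7% of its H2ABbd positions and 48.5% of its 5mC positions on the plus strand. One more, chromosome 15 from 76007001 to 76017000, held 5 members in 10 kb at 2.68 and 2.18 times its flanks.

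**Figure D3:**
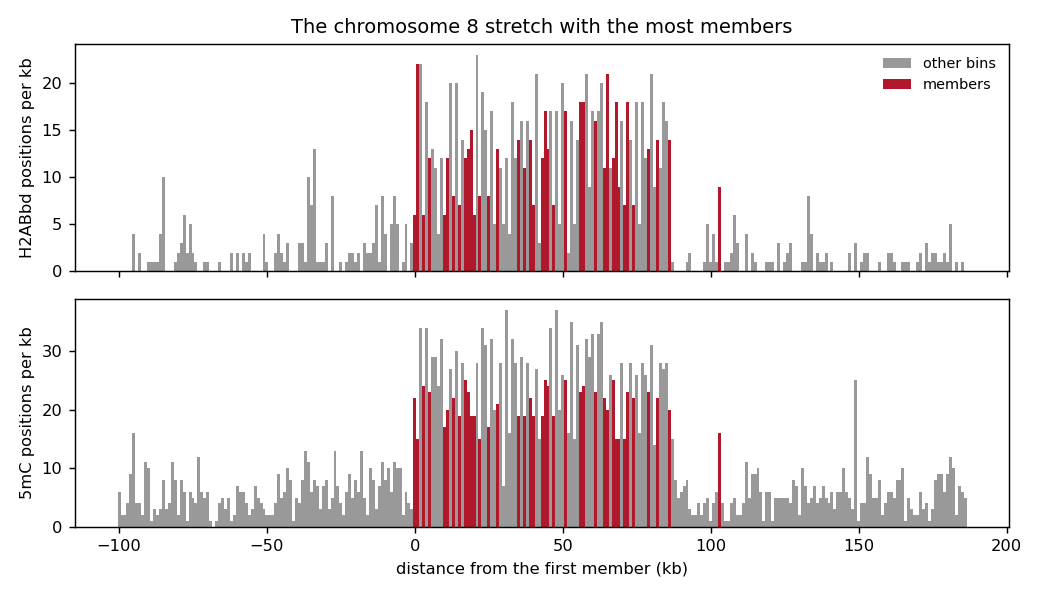
Distinct positions per 1 kb bin in the library labelled H2ABbd (top) and 5mC (bottom) across the chromosome 8 stretch and 100 kb to each side, by distance from its first member in kb; members are red and other bins grey. Both libraries are raised over the same 87 kb, with medians of 13 and 24 positions inside against 1 and 5 in the flanks.

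The longest runs of members came partly from these stretches. The single run of 4 bins, chromosome 8 from 126078001 to 126082000, held 46 positions of H2ABbd and 86 of 5mC. A pair of 3-bin runs lay on the same stretch, from 126104001 to 126107000 (42 and 68 positions) and from 126128001 to 126131000 (39 and 55). Chromosome 1 from 173003001 to 173006000 held 27 and 66. Chromosome 13 from 71157001 to 71160000 differed from these, since it stood alone: it held 34 positions of H2ABbd and 55 of 5mC, and the bins on its 2 sides held 0 and 0 of H2ABbd and 7 and 4 of 5mC.

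Outside the bin itself the levels of both libraries fell quickly and then slowly. At the member the mean level was 15.2 times the autosomal mean in H2ABbd and 5.17 times in 5mC, values that the rule fixed. At 1 kb it was 4.82 (4.72 to 4.91) and 2.15 (2.12 to 2.18). At 5 kb the levels were 2.81 (2.74 to 2.89) and 1.67 (1.65 to 1.70), at 20 kb 2.24 and 1.54, and at 100 kb still 1.76 and 1.33. The means rest partly on few very deep bins, since the median bin at 5 kb held 1 position of H2ABbd and 5 of 5mC (means 1.75 and 5.95). Leaving out members within 5 kb of a bin above 25 positions in either library (1514 members kept) gave 3.40 and 1.74 at 1 kb, 2.15 and 1.43 at 5 kb, and 1.70 and 1.30 at 100 kb.

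The order of the sets at 5 kb differed between the libraries. In H2ABbd their level at 5 kb (2.81) lay above that of H2ABbd-rich bins (2.43, 2.41 to 2.45) and of 5mC-rich bins (1.93, 1.90 to 1.96). In 5mC their level at 5 kb (1.67) lay above that of H2ABbd-rich bins (1.32, 1.32 to 1.33) and slightly below that of 5mC-rich bins (1.73, 1.71 to 1.74). With bins within 5 kb of deeper ones left out of all 3 sets, a comparison added after the values were seen, H2ABbd at 5 kb was 2.15 (2.08 to 2.22) around members, 2.35 (2.33 to 2.37) around H2ABbd-rich bins and 1.68 (1.66 to 1.71) around 5mC-rich bins. The order of the first 2 was thus turned. The 5mC levels were then 1.43 (1.40 to 1.45), 1.31 and 1.46 (1.45 to 1.47), and those of members and 5mC-rich bins overlapped. Without the chromosome 8 stretch the H2ABbd level around members was 2.47 (2.40 to 2.54), which overlaps that of H2ABbd-rich bins. Deeper bins stood within 1 kb of 5.52% of members (4.47 to 6.74), 1.07% of H2ABbd-rich bins, 4.93% of 5mC-rich bins and 0.257% of all bins.

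**Figure D4:**
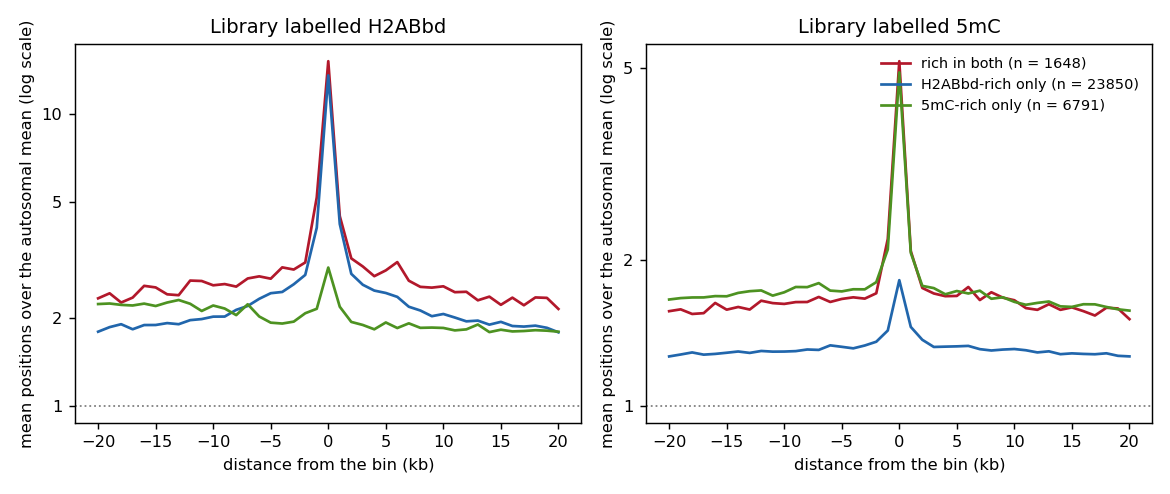
Mean distinct positions per bin, as fold over the autosomal mean (log scale), from 20 kb before to 20 kb after members (red), H2ABbd-rich bins (blue) and 5mC-rich bins (green), in the library labelled H2ABbd (left) and 5mC (right). Levels at distance 0 were fixed by the choice of bins; around members H2ABbd falls from 15.2 to 2.24 at 20 kb and 5mC from 5.17 to 1.54.

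Members differed in how sharply they rose over their own surroundings. With the mean of the bins at 2 to 5 kb on both sides as the base, and 1 position added to each, the median local fold was 4.62 in H2ABbd (quartiles 2.99 and 6.67) and 3.13 in 5mC (2.32 and 4.23). The member's own count, which the rule bounded from below, enters this fold, so high folds were partly fixed by the choice of bins. No share of other bins is given beside the next values. In 453 members (27.5%) the fold was 4 or more in both libraries. In 315 members (19.1%) it was below 2 in at least 1 library, so there the surroundings were raised too.

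The 5 sharpest members by the lower of the 2 folds were of 2 kinds. In 3 of them the positions were spread, over 311 to 586 bp in H2ABbd and 542 to 823 bp in 5mC, with few repeated reads. Chromosome 1 from 56065001 to 56066000 held 24 positions in 25 reads of H2ABbd and 23 in 24 reads of 5mC (18.2-fold and 12.0-fold), with 0 and 0 H2ABbd positions in the adjoining bins and 2 and 1 of 5mC. Chromosome 1 from 178875001 to 178876000 held 25 in 27 reads and 22 in 23 (26-fold and 11.5-fold), and chromosome 5 from 61894001 to 61895000 held 13 in 17 and 19 in 19 (12.4-fold and 10.7-fold). In these 3 most H2ABbd positions were on the plus strand (20 of 24, 21 of 25 and 11 of 13), while 5mC was more even (13 of 23, 14 of 22 and 12 of 19).

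The other kind was a ladder, a row of neighbouring H2ABbd start sites on a single strand. Chromosome 1 from 149617001 to 149618000 held 20 H2ABbd positions within 19 bp, all on the plus strand, read 219 times, and 19 5mC positions within 18 bp, also all plus, read 161 times. Chromosome 6 from 133119001 to 133120000 held 16 H2ABbd positions within 21 bp, all minus, in 23 reads, and 24 5mC positions within 205 bp, 1 of them plus, in 70 reads. The bin after it held 26 and 25 positions and was too deep in H2ABbd to be a member. Spans are those of the shifted positions. Ladders in both libraries were few: in 3 members the positions of each library spanned 50 bp or less, and in 21 members those of H2ABbd did, all 21 on 1 strand. Of these 21, 19 held a position with 5 or more reads in either library.

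The strand split of H2ABbd was more lopsided in members than in H2ABbd-rich bins of equal count. All H2ABbd positions lay on 1 strand in 320 members (19.4%), 195 on plus and 125 on minus. Among H2ABbd-rich bins, weighted to the same counts of positions, the share was 7.11%. With 80% or more on 1 strand counted, the shares were 48.4% and 29.3%. Of the 320, 290 held no position of 5 or more reads in either library, as did 1574 of all 1648 members. The one-strand share was 18.4% of these 1574 and 40.5% of the 74 members with such a position (30 members). Pooled over all members the plus strand held 54.7% of H2ABbd positions (53.9 to 55.5), against 57.9% in H2ABbd-rich bins and 54.3% in all bins.

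The 5mC positions leaned with the H2ABbd positions of the same member, less strongly. Where H2ABbd was all plus, the median share of 5mC on plus was 62.5% (quartiles 52.6 and 73.5), and 5mC leaned plus in 150 of 195 members. Where H2ABbd was all minus it was 43.8% (33.3 and 52.4), and 5mC leaned minus in 82 of 125. Members with H2ABbd on both strands had a median of 52.9%, and 5mC leaned plus in 731 and minus in 521 of these 1328. The same 100 bp shift was applied to both libraries, and its part in the joint lean was not tested. Across the 1648 members Pearson's r of the 2 plus shares was 0.390, and across 13688 H2ABbd-rich bins with at least 6 5mC positions it was 0.198. These are descriptions across bins of the same 2 libraries, the bins of the second set have fewer 5mC positions behind each share, and bins are not replicates. On its own, 5mC was rarely on 1 strand (8 members, 0.485%, against 0.0709% of 5mC-rich bins at equal counts).

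The other strand was often found in the adjoining bins. The 100 bp shift moves the strands in opposite directions, and the one-strand shares above are given for this shift alone. In the 2 bins that adjoin the 320 one-strand members, 52.9% (50.8 to 54.9) of 2305 H2ABbd positions were on the opposite strand. Beside members with both strands 41.1% (40.0 to 42.3) were on the lesser strand of the member. Of the 320 members, 138 (43.1%) had no opposite-strand position in either adjoining bin. Beside members with both strands the lesser strand was missing there in 442 of 1328 (33.3%).

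**Figure D5:**
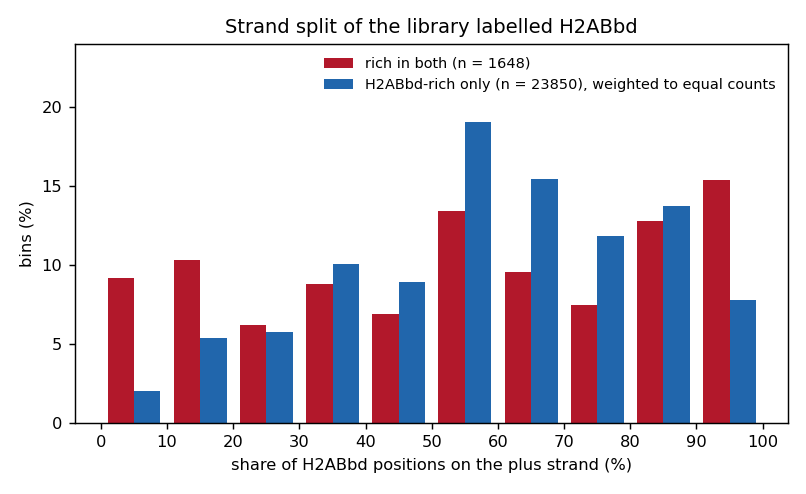
Percent of bins by the share of H2ABbd positions on the plus strand, in classes of 10 percentage points, for members (red) and for H2ABbd-rich bins weighted to the members' counts (blue). Members fill the outer classes: 9.16% lie under 10% plus and 15.4% at 90% or more, against 2.03% and 7.80%.

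The distances between opposite strands also differed. In sonicated libraries a plus start and the minus start of the far fragment end lie about 1 fragment apart. Over H2ABbd-rich bins this distance was for H2ABbd most often 110 to 119 bp, with 4.36 times the mean level of the 10 classes from 500 bp upwards. In members the most frequent class was 40 to 49 bp, at 13.2 times, and in 5mC it was the same class at 5.79 times. For 5mC this class also led in 5mC-rich bins, at 3.26 times, so members differed there in height and not in the class. This is the class of the 42 bp read length, where reads of both strands cover the same bases. The peak rested on few bins. Without the 74 members that held a position of 5 or more reads in either library, the 40 to 49 bp class stood at 3.93 times in H2ABbd, and the most frequent class was 100 to 109 bp at 4.40 times. In 5mC the 40 to 49 bp class still led, at 3.63 times against 3.58 at 70 to 79 bp, a nearly flat profile. Opposite starts 41 bp apart, which bound exactly 1 read length, occurred for H2ABbd in 64 members (3.88%, against 2.40% of H2ABbd-rich bins), beside 61 members with starts 51 bp apart. A single bin held up to 17 of the former. Without the 74 members each distance occurred in 43.

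Members carried more repeated reads than bins of equal count in either comparison set. A repeated read shares its position and strand with another, through PCR copies of a fragment or through fragments that happen to start alike. Of 21584 H2ABbd reads in members 28.0% were repeats (27.4 to 28.6), against 18.2% in H2ABbd-rich bins, and of 35672 5mC reads 15.2% (14.8 to 15.6), against 7.05% in 5mC-rich bins. Over all autosomal bins the shares were 60.9% and 13.4%, so members lay far below the whole library in H2ABbd and slightly above it in 5mC. At equal counts this was 3.67 repeated H2ABbd reads per member against 2.03, and 3.29 repeated 5mC reads against 1.42. The excess was concentrated. The median member had 2 repeated reads in H2ABbd and 1 in 5mC, and 349 members (21.2%) and 513 (31.1%) had none. In 5mC 29 members held 50% of all repeats, and in H2ABbd 117 did. In the 1574 members without a position of 5 or more reads the shares were 19.03% and 7.19%, beside 18.2% and 7.05% in the full comparison sets.

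The members with the highest shares of repeats were the same kind of bin in both libraries. Chromosome 15 from 6267001 to 6268000 held 20 H2ABbd positions read 284 times and 21 5mC positions read 236 times, so 93.0% and 91.1% of its reads were repeats. All positions of both libraries were on the plus strand, and the bin before it, also a member, held 12 and 18 positions, all minus. Chromosome 19 from 36778001 to 36779000 held 19 positions in 209 reads and 23 in 175, and chromosome 12 from 7933001 to 7934000 held 19 in 182 and 18 in 173. With chromosome 1 from 149617001 these share a shape: H2ABbd positions all on plus, 10 to 13 H2ABbd positions in the bin before, and none in the bin after. The 100 bp shift moves plus starts forwards and minus starts backwards, so it can part the strands of 1 pile into adjoining bins. The part of the shift in this shape was not tested.

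At such places the 2 libraries read the same start sites. Of the H2ABbd positions in members 5.37% (5.02 to 5.73) were also a position of 5mC, on the same strand. The share rose with the reads at the position: 2.95% of 12188 positions with 1 read, 6.46% of 2432 with 2, 18.1% of 691 with 3 to 4, 99 of 132 with 5 to 9, and all 94 with 10 or more, which lay in 13 members. In H2ABbd-rich bins, which have fewer 5mC positions to meet, the shares were 0.696%, 0.853% and 0.899% for 1, 2 and 3 to 4 reads, 10.9% of 229 for 5 to 9, and all 16 for 10 or more. Over all autosomal bins the rise was like that of members, from 1.40% and 3.25% at 1 and 2 reads to 13.9%, 81.0% and 99.0% in the higher classes.

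Among members without heavily repeated positions, exact coincidence was no more frequent than a miss by 1 bp. In the 1574 members without a position of 5 or more reads, 2.24% of H2ABbd positions met a 5mC position at the same base, 2.49% at 1 bp to either side, 2.10% at 10 bp, 1.87% at 50 bp and 0.993% at 200 bp. With all members the values were 5.37%, 5.34%, 3.23%, 1.92% and 1.01%. The read names sampled from both files give the same instrument, run, flow cell and lane, and the part of this shared lane in the common positions was not tested.

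Within members the 2 libraries also peaked close together. The median positions of H2ABbd and 5mC lay 76 bp apart in the median member (quartiles 31 and 156.5 bp), and within 50 bp in 36.1% of members (33.8 to 38.5). In H2ABbd-rich bins the distance was 138.5 bp and 21.8% were within 50 bp, and in 5mC-rich bins with an H2ABbd position 130 bp and 22.6%. The comparison bins have fewer positions of 1 library, which widens the spread of its median, and the part of this in the difference was not tested. The share of positions in the densest 200 bp of a member was near that of the comparison sets at equal counts, with means of 67.9% against 68.1% in H2ABbd and 53.4% against 51.5% in 5mC. The libraries are not compared with each other here, since this share depends on the counts that the rule set.

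The pooled excess of plus positions was smallest in well-filled members with many repeated reads. Among members with 10 or more H2ABbd positions, 61.6% of positions were on plus (58.4 to 64.7) in the 70 members with under 5% repeated reads, 59.6% (57.8 to 61.4) in the 219 with 5 to 20%, and 51.5% (50.0 to 53.0) in the 301 with more. This is a sum over members that lean either way: of the 301, 147 leaned plus and 135 minus. It says nothing of evenness within a member, and 40.5% of the 74 members with a position of 5 or more reads were on 1 strand. Without the chromosome 8 stretch the first value was 57.4% (53.5 to 61.2) in 50 members and the second 59.4% (57.5 to 61.2) in 214, so the order of these 2 rests on that stretch and lies within counting error. In H2ABbd-rich bins the steps were larger, at 70.7% of 1584 bins' positions, 60.7% and 50.8%, and 5mC moved alongside there (67.7%, 56.5% and 51.1%). In the same classes of members 5mC stood at 56.3%, 54.8% and 52.7%.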

How the data were processed

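Per the submitters' processing notes, reads were checked with FastQC and aligned with Bowtie to mm9. Their versions, and how multiply mapping reads were handled, are not stated in what was used here. Each deposited file lists 1 aligned 42 bp read per line, and each read name occurs once per file. The deposited score column is 255 on every line and was not used. Malformed lines were left out (8 for H2ABbd, 1 for 5mC).

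Positions were collapsed, shifted by 100 bp and counted in 1 kb bins of chromosomes 1 to 19. Levels are distinct positions, or RPM of each library's distinct positions. Intervals are exact Clopper-Pearson (shares) and Poisson (levels). Without molecular identifiers, PCR reads cannot be taken as independent molecules. Counting and the choice of bins were tested on simulated data. With 1 library per group no test was made. The alternatives were other shifts, bin grids, bounds and flank summaries, and leaving out members (those near deeper bins, adjoining ones, those of 1 chromosome or of 1 stretch). Comparisons at equal counts weight the other set to the members' counts.

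The members and the comparison sets were chosen with earlier results of these data known. Regions named by rule are the 5 longest runs (ties by summed positions, then coordinate), the 5 sharpest members, the 5 fullest 1 Mb windows, the extreme chromosomes and, per library, the 3 members with the highest share of repeats among those with 20 or more reads. The stretches of 5 or more members, the classes by reads per position, the read-length pairs and the strand lean by repeats were chosen after their values were seen. Computation used Python 3.11.15, numpy 2.4.6, scipy 1.17.1, pandas 2.3.3 and matplotlib 3.10.9.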

Additional observations from a re-analysis of the deposited data

Results flagged for a closer look

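The rule covers autosomes only, and bins of the sex chromosomes with the same counts were set aside. On X 18 of 135358 bins (0.0133%, exact 95% interval 0.00788 to 0.0210) held 6 to 25 positions of H2ABbd and 15 to 25 of 5mC, against 0.0761% of autosomal bins. On Y 4 of 954 bins did (0.419%, 0.114 to 1.07). The part of copy number in these shares was not tested.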

How the results depend on the processing

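Of 104 values under other settings, 54 stayed within the interval (for counts of bins, within 1.5 times) of the value reported. The cause of the other shifts was not tested. The values that moved include the shares in the last 2 Mb and the last 10 Mb, set against that in the last 5 Mb. They also include 4 medians, set against intervals of means. Both kinds measure another quantity, so the tally alone does not measure robustness. The number of members was 991 with the lower bounds raised by 1 and 2741 with the bounds applied to all reads. The share in the last 2 Mb was 2.25% and in the last 10 Mb 20.3%. The share adjoining another member was 5.15% with raised bounds, 4.56% without members within 5 kb of deeper bins and 5.09% without the chromosome 8 stretch, a setting added after its values were seen. The H2ABbd plus share was 55.7% with raised bounds.

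Repeated reads in H2ABbd were 26.3% with no shift, 31.1% with raised bounds, 29.0% without members near deeper bins and 25.7% with 1 member per run. In 5mC they were 13.2% with no shift, 14.1% with a 60 bp shift, 19.1% with raised bounds, 12.996% with 1 member per run and 15.6% without chromosome 5. The H2ABbd positions shared with 5mC were 4.65% with no shift, 6.84% with raised bounds and 4.78% with 1 member per run.

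The H2ABbd level at 1 kb was 4.56 with no shift, 4.99 with a 60 bp shift, 4.55 on the 500 bp grid, 5.36 with raised bounds, 3.40 without members near deeper bins, 4.49 with 1 member per run, 4.98 without chromosome 5, 4.38 without the stretch and 1.61 as a median. At 5 kb it was 2.99 (no shift), 3.33 (60 bp), 2.59 (500 bp grid), 2.15 (away from deeper bins), 2.65 (1 per run), 2.47 (no stretch) and 1.61 (median). The 5mC level at 1 kb was 2.08 (no shift), 2.18 (60 bp), 2.07 (500 bp grid), 2.25 (raised bounds), 1.74 (away from deeper bins), 2.07 (1 per run), 2.03 (no stretch) and 1.69 (median). At 5 kb it was 1.78 (60 bp), 1.60 (500 bp grid), 1.43 (away from deeper bins), 1.63 (1 per run), 1.57 (no stretch) and 1.41 (median). Each of the mean levels stayed above 1. The medians are also divided by the autosomal mean, so 1 is not a neutral value for them. For H2ABbd the median flanking bin held 1 position at both distances, against 0 over all bins. For 5mC it held 6 at 1 kb and 5 at 5 kb, against 3 over all bins. With 0.622 positions of H2ABbd per bin on average, a bin of 6 positions and one of 5 differ by less than counting error, so single members near the bounds are not reliable. No paired analysis was possible because each group holds 1 library.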
